A study of Saccharomyces cerevisiae BY4741 with 8 samples.

Results

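The transcriptome of the *YRR1* deletion strain BY4741(*yrr1*Δ) was compared with that of its parent BY4741, with both strains of *Saccharomyces cerevisiae* growing in SD, a synthetic glucose medium, and with no vanillin added. The comparison was taken by the strain and medium labels, and it held 4 of the 8 libraries of the series, 2 of BY4741(*yrr1*Δ) and 2 of BY4741. The other 4 libraries, from the same strains in SD with 5 mM vanillin, entered only the estimate of the spread between replicates and a test of whether strain differences depended on the medium. BY4741(*yrr1*Δ) carries a KanMX cassette in place of *YRR1*. BY4741 is the haploid laboratory parent, and both strains share its auxotrophic markers, printed in the strain description as *his3*Δ1, *leu2*Δ, *met5*Δ and *ura3*Δ. Cultures with 20 g/L glucose were started at an OD600 of 0.2, grown at 30 °C and 200 rpm, and harvested in the log phase at an OD600 of 1.6 to 2.0. Each value below is 1 culture, and the study calls its cultures biological replicates.

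Yrr1p is a zinc cluster transcription factor of the yeast multidrug resistance network, and it activates genes for membrane pumps and for reductases that act on foreign compounds. A second set of genes is followed here because it reads the state of a yeast culture. Growing yeast transcribes ribosome biogenesis genes, which make and assemble ribosomes, at high levels and keeps general stress genes low, while slow growth, glucose depletion or stress turns this balance round. In RNA of a whole culture, a change in every cell cannot be told apart from a change in the share of cells in 1 state.

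The expected counts of a library, estimates of the reads that came from each gene, summed to between 2195324 and 2453837 over the 8 libraries. The files listed 5782 genes, of which 5506 had enough counts to be tested. CPM here stands for counts per 1000000 counts of the normalised library size. Of the mating type genes, *STE2* and *MF(ALPHA)1* followed the *MAT*a genotype of the strains. Other genes of alpha cells were not all near 0. *STE3* and *SAG1* passed the count filter also in the 4 SD libraries alone. *MF(ALPHA)2* had 5 and 3 counts in BY4741(*yrr1*Δ), against 5 and 4 counts in BY4741. *STE2*, the receptor for alpha factor in a cells, had 1346 and 1706 counts in BY4741(*yrr1*Δ), against 1445 and 1631 counts in BY4741. *MF(ALPHA)1*, the alpha factor gene of the opposite mating type, had 1 and 1 counts in BY4741(*yrr1*Δ), against 0 and 1 counts in BY4741. Of the genes listed as deleted in the parent, *LEU2* and *URA3* had 0 to 2 counts in the 4 libraries. *MET17*, also called *MET15*, which the strain description does not list, had 1 to 9. *HIS3*, of which only a part is deleted in *his3*Δ1, had 144 to 181 counts. *MET5*, the symbol printed in the strain description, had 300 and 483 counts in BY4741(*yrr1*Δ), against 457 and 344 counts in BY4741, so its transcript was present in both strains.

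*YRR1* (YOR162C, chromosome XV, 639560 to 641992 in R64) had 2 and 1 counts in BY4741(*yrr1*Δ), against 77 and 73 counts in BY4741. Its groups did not overlap, and the summed counts gave a level 48.1-fold lower in BY4741(*yrr1*Δ), with an exact 95% interval from 16.2 to 236. This interval and those of other low counts cover counting error only, and PCR copies are not separate molecules. The log2 fold change fitted by edgeR was -5.48 with a standard error of 0.47 (FDR = 0.0059, Benjamini-Hochberg adjusted, from edgeR's quasi-likelihood test), and a fitted value at so few counts depends on the constant added before the logarithm. *YRR1* was the 1 gene, 0.0182% of the 5506 tested, with an FDR of at most 0.05. At the limits in the study's methods, which ask for an FDR up to 0.001 together with a 2-fold change or more, 0 genes were called, which is 0% of those tested. DESeq2's Wald test called 1 gene, *YRR1*, at these limits. The FDR of *YRR1* from edgeR was 0.068 without replicate 1 and 0.14 without replicate 2 of BY4741(*yrr1*Δ), 0.0459 without replicate 1 and 0.0429 without replicate 2 of BY4741, and 0.0708 from the 4 SD libraries alone. The call thus depended on the libraries in the fit, while the counts are as deposited. An unadjusted p under 0.05 from edgeR's test was reached by 61 genes with a higher level in BY4741(*yrr1*Δ), 1.11% of those tested, and by 37 genes with a lower level, 0.672%. The split of these genes depended on the scaling, with 62.2% of them higher in BY4741(*yrr1*Δ) under TMM scaling, 72.0% with DESeq2 size factors and 37.9% with library size alone. Their number, 98, became 176 without replicate 1 and 355 without replicate 2 of BY4741(*yrr1*Δ), and 281 without replicate 1 and 63 without replicate 2 of BY4741. An exact permutation test of 2 libraries against 2 cannot give a p below 0.333, so all tests of single genes here rest on the spread shared across genes and conditions.

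The strains differed by less than cultures of 1 strain did. Over the 5506 genes the median size of the difference between the strain means was 0.16 on the log2 scale. Between the 2 BY4741(*yrr1*Δ) cultures it was 0.31, and between the 2 BY4741 cultures 0.25. A strain mean averages 2 libraries and a culture difference does not, which by itself makes the first smaller. Differences of at least 2-fold were found for 41 genes between the strain means, for 340 genes between the BY4741(*yrr1*Δ) cultures and for 293 genes between the BY4741 cultures. The strain difference was below the mean of the 2 culture differences for 4089 genes, 74.3%, and above both of them for 842 genes, 15.3%. Of the summed squared deviations from the mean of each gene, 25.3% lay between the strains and 74.7% between cultures of 1 strain, where 1 of the 3 degrees of freedom is between strains. The median half-width of a 95% interval of the strain difference was 0.55 on the log2 scale. These intervals are before adjustment over the genes tested. For a typical gene in 2 cultures per strain, the interval of a smaller difference thus included 0. A call at an adjusted threshold asks for a larger difference.

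**Figure D1:**
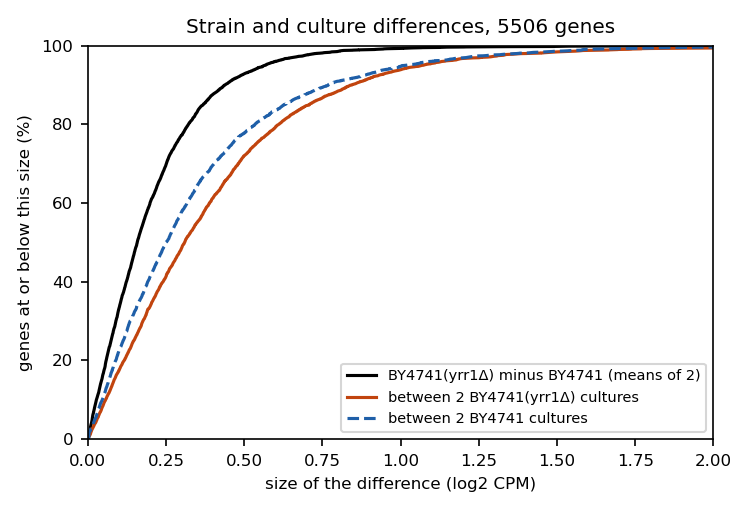
Share of the 5506 tested genes (y axis, percent) whose difference is at or below a given size (x axis, log2 CPM), for the difference between strain means (black line), between the 2 BY4741(*yrr1*Δ) cultures (orange line) and between the 2 BY4741 cultures (blue dashed line). The black line lies left of both others, with medians of 0.16 for the strain means, 0.31 for the BY4741(*yrr1*Δ) cultures and 0.25 for the BY4741 cultures.

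Genes whose 2 libraries of BY4741(*yrr1*Δ) both lay above the 2 of BY4741 numbered 709, 12.9% of those tested, and genes with both below numbered 708, also 12.9%. Counts of this kind for the gene lists that follow are read against these shares. Counts of positive log2 fold changes are read against 49.0% of all genes tested, and counts of negative ones against 51.0%. Counts with an unadjusted p under 0.05 are read against 1.11% for higher and 0.672% for lower genes.

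The 12 genes listed as Yrr1p targets, taken from their annotation and from background knowledge of the network, were still transcribed in BY4741(*yrr1*Δ). None of the 12 passed the adjusted threshold, and their median log2 fold change was 0.11, with 7 positive and 5 negative values, against -0.01 over all genes tested. Leaving out replicate 1 of BY4741(*yrr1*Δ) gave -0.0016. Libraries did not overlap for 4 of the 12, each higher in BY4741(*yrr1*Δ), and for 0 of the 12 lower. *SNQ2* and *YOR1*, which encode ABC transporters that export drugs, are the best known of these targets. *SNQ2* had 175 and 216 CPM in BY4741(*yrr1*Δ), against 199 and 172 CPM in BY4741, a log2 fold change of 0.08 with a 95% interval of -0.33 to 0.48. *YOR1* had 145 and 149 CPM in BY4741(*yrr1*Δ), against 168 and 146 CPM in BY4741, with a log2 fold change of -0.09 and a 95% interval of -0.54 to 0.36. The libraries of the strains overlapped for both transporters, and the intervals left out a 2-fold loss of either transcript.

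The other pumps among the targets were *AZR1* and *FLR1*, transporters of the major facilitator superfamily. *AZR1* had 25.98 and 33.7 CPM in BY4741(*yrr1*Δ), against 24.6 and 20.8 CPM in BY4741. *FLR1* had 29.8 and 27.4 CPM in BY4741(*yrr1*Δ), against 24.6 and 27.3 CPM in BY4741. Both had their 2 BY4741(*yrr1*Δ) libraries above those of BY4741, by log2 fold changes of 0.40 and 0.14 with standard errors of 0.29 and 0.23. *SNG1*, a membrane protein of nitrosoguanidine resistance, had 49.6 and 28.6 CPM in BY4741(*yrr1*Δ), against 30.7 and 52.4 CPM in BY4741. Its 2 cultures were further apart in each strain than the strain means were, so the strains overlapped.

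YLR046C, a putative membrane protein of the lipid-translocating exporter family, had the smallest p of the 12. It had 79.9 and 65.3 CPM in BY4741(*yrr1*Δ), against 47.5 and 41.6 CPM in BY4741, a log2 fold change of 0.70 with a standard error of 0.23 (unadjusted p = 0.014 and FDR = 0.9995 from edgeR's quasi-likelihood test). Its level was higher in both cultures of the deletion strain, and the fitted value ran from 0.55 to 0.84 over the settings and left-out libraries tried.

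The reductases YLL056C, which reduces aldehydes, and YPL088W, a putative aryl-alcohol dehydrogenase, had log2 fold changes of -0.23 and -0.24 with standard errors of 0.26 and 0.29, and their libraries overlapped between the strains. *SUR2*, a hydroxylase of sphingolipid synthesis, had 172 and 110.3 CPM in BY4741(*yrr1*Δ), against 145 and 190.1 CPM in BY4741, with a log2 fold change of -0.25. *APD1* had a log2 fold change of 0.18, *LAF1*, a sterol-binding protein, 0.35, and YLR179C 0.29, with standard errors of 0.19 to 0.24. Left-out libraries turned the sign of 6 of the 12 targets, which were *SNQ2*, *SNG1*, *SUR2*, YLL056C, YPL088W and YLR179C. Their BY4741(*yrr1*Δ) and BY4741 values could not be told apart in 2 cultures.

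**Figure D2:**
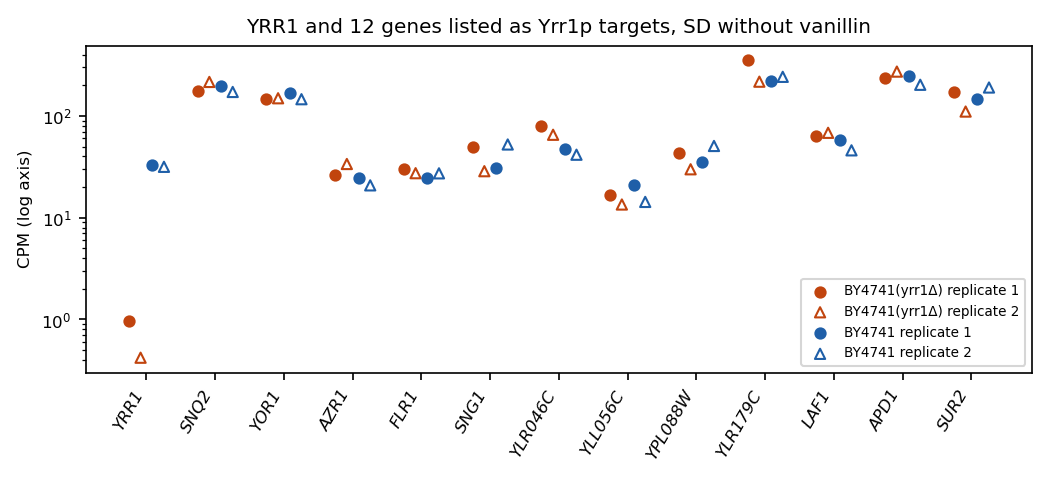
CPM (y axis, log scale) of *YRR1* and of 12 genes listed as Yrr1p targets (x axis) in the 2 BY4741(*yrr1*Δ) libraries (orange) and the 2 BY4741 libraries (blue), with circles for replicate 1 and triangles for replicate 2. *YRR1* is below 1 CPM in BY4741(*yrr1*Δ), against 33.2 and 31.6 CPM in BY4741, while the strains overlap for the targets other than YLR046C, *AZR1*, *FLR1* and *LAF1*, whose BY4741(*yrr1*Δ) libraries lie above.

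Of the 29 other genes of the drug resistance network, its regulators and further pumps, 0 had an unadjusted p under 0.05, and 6 of 29 lay above and 2 of 29 below BY4741 without overlap. The median of the list was 0.11, and it turned to -0.04 without replicate 1 of BY4741. *PDR5*, the main ABC transporter of the network, had 451 and 433 CPM in BY4741(*yrr1*Δ), against 383 and 493 CPM in BY4741. *YAP1*, the regulator of the oxidative stress response, had 164 and 169 CPM in BY4741(*yrr1*Δ), against 166 and 181 CPM in BY4741. *RDR1*, a repressor of drug resistance genes, had the smallest p of the list and had 28.4 and 25.7 CPM in BY4741(*yrr1*Δ), against 17.3 and 20.4 CPM in BY4741. Neither the pump *PDR5* nor *YAP1* showed a strain difference above the spread of its cultures, while *RDR1* did not overlap. The pleiotropic drug response element TCCGCGGA, the palindrome bound by Pdr1p and Pdr3p, was in 0 of the 12 promoters of the Yrr1p targets. It was in 13 of all 6020 promoters (0.216%), with promoters taken as 250 bases before to 50 bases after the annotated coding start in R64. At so low a share 0 is likely for any 12 promoters, so this count does not set the targets apart.

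Outside the network, the 10 genes with the largest higher values in BY4741(*yrr1*Δ), among those with an unadjusted p under 0.05 and a mean of at least 20 counts, came from several pathways. None of them passed the adjusted threshold (FDR = 0.9995 for each from edgeR's quasi-likelihood test). *CAR2*, ornithine transaminase of arginine breakdown, had 133 and 41.7 CPM in BY4741(*yrr1*Δ), against 17.7 and 38.1 CPM in BY4741, with a log2 fold change of 1.64 and a standard error of 0.57. *FMP45*, a membrane protein of the Sur7 family, had 172 and 78.3 CPM in BY4741(*yrr1*Δ), against 51.8 and 33.8 CPM in BY4741, with 1.54 and 0.41 for the same quantities. *GUT2*, the mitochondrial glycerol 3-phosphate dehydrogenase, had 144 and 73.7 CPM in BY4741(*yrr1*Δ), against 46.2 and 47.6 CPM in BY4741, with 1.21 and 0.34. In each of these 3 genes replicate 1 of BY4741(*yrr1*Δ) stood well above the other 3 libraries, and replicate 2 of BY4741(*yrr1*Δ) was also above both BY4741 cultures. Without replicate 1 of BY4741(*yrr1*Δ) the log2 fold changes were 0.57 for *CAR2*, 0.87 for *FMP45* and 0.65 for *GUT2*.

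The same library led the other 5 genes of this group that have a single copy. *SHR5*, a palmitoyltransferase subunit, had 58.7 and 17.3 CPM in BY4741(*yrr1*Δ), against 12.1 and 16.9 CPM in BY4741. *AVT6*, a vacuolar amino acid exporter, had 108 and 37.1 CPM in BY4741(*yrr1*Δ), against 31.1 and 33.8 CPM in BY4741. *VRP1*, the actin-binding verprolin, had 61.1 and 29.1 CPM in BY4741(*yrr1*Δ), against 16.8 and 25.98 CPM in BY4741. In these 3 the first culture of BY4741(*yrr1*Δ) was more than 2-fold above the next library. *YCH1*, a phosphatase, had 26.5 and 8.84 CPM in BY4741(*yrr1*Δ), against 7.34 and 8.23 CPM in BY4741. *SCS3*, a gene of phospholipid synthesis, had 162 and 50.96 CPM in BY4741(*yrr1*Δ), against 37.1 and 57.6 CPM in BY4741. Replicate 2 of BY4741(*yrr1*Δ) was close to the BY4741 cultures in these 5, and for *SCS3* it lay between them. Without replicate 1 of BY4741(*yrr1*Δ) the log2 fold changes of the 5 ran from 0.10 for *SCS3* to 0.44 for *VRP1*, against values from 1.06 to 1.37 with it.

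*YRF1-3* and *YRF1-7* are subtelomeric helicase genes of the Y' elements, near-identical copies whose reads the counting could split, and the 2 had identical counts. Each had 118 and 32 counts in BY4741(*yrr1*Δ), against 1 and 1 counts in BY4741, 77.9-fold higher in BY4741(*yrr1*Δ) with an exact 95% counting interval of 21.2 to 649. *YRF1-6*, another copy, was lower in BY4741(*yrr1*Δ), and it had 32.7 and 90.5 CPM in BY4741(*yrr1*Δ), against 134 and 188 CPM in BY4741. The values of the copies lay in opposite directions, and their single values are uncertain.

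The 9 largest lower values beside *YRR1* were taken from genes with an unadjusted p under 0.05 and a mean of at least 20 counts. None of these 9 genes passed the adjusted threshold (FDR = 0.9995 for each from edgeR's quasi-likelihood test). Of them 3 belong to the making of RNA and ribosomes, and the share of such genes over all genes tested was not counted. *RPC31*, a subunit of RNA polymerase III, had 27.9 and 24.005 CPM in BY4741(*yrr1*Δ), against 37.6 and 60.2 CPM in BY4741, with a log2 fold change of -0.91 and a standard error of 0.29. *UTP8*, a component of the processome of the small ribosomal subunit, had 29.4 and 22.7 CPM in BY4741(*yrr1*Δ), against 29.8 and 64.5 CPM in BY4741, with -0.86 and 0.34. *CIC1*, which takes part in the assembly of the large subunit, had 76.99 and 49.7 CPM in BY4741(*yrr1*Δ), against 81.2 and 137 CPM in BY4741, with -0.79 and 0.33. Replicate 2 of BY4741 was the high library in these 3 genes, and replicate 1 of BY4741 lay closer to BY4741(*yrr1*Δ) than to it. Without replicate 2 of BY4741 the log2 fold changes were -0.54 for *RPC31*, -0.20 for *UTP8* and -0.36 for *CIC1*.

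Of the other lower genes *YRF1-6* is given above, and the rest had few counts. *SMA2*, a prospore membrane gene of sporulation, had 5.77 and 10.1 CPM in BY4741(*yrr1*Δ), against 15.98 and 18.6 CPM in BY4741. *PUL3*, a putative transporter, had 5.29 and 7.58 CPM in BY4741(*yrr1*Δ), against 13.8 and 12.99 CPM in BY4741. *CTM1*, a cytochrome c methyltransferase, had 9.62 and 10.5 CPM in BY4741(*yrr1*Δ), against 24.2 and 14.3 CPM in BY4741. These 3 were lower in both BY4741(*yrr1*Δ) cultures than in either BY4741 culture. *OSI1*, an aldehyde reductase, had 7.70 and 8.002 CPM in BY4741(*yrr1*Δ), against 15.98 and 12.6 CPM in BY4741. *NUT2*, a Mediator subunit, had 6.74 and 6.74 CPM in BY4741(*yrr1*Δ), against 11.7 and 12.6 CPM in BY4741. In *OSI1* and *NUT2* the 2 BY4741(*yrr1*Δ) cultures were almost equal and lay below both BY4741 cultures. Their log2 fold changes were -0.86 and -0.84, with standard errors of 0.31 and 0.32. Those of *SMA2*, *PUL3* and *CTM1* were -1.10, -1.04 and -0.93, and over all 9 genes the smallest unadjusted p was 0.0101 from edgeR's quasi-likelihood test, for *SMA2*. With 1 library left out the value of *CTM1* ran from -1.26 to -0.51 and that of *SMA2* from -1.58 to -0.78.

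**Figure D3:**
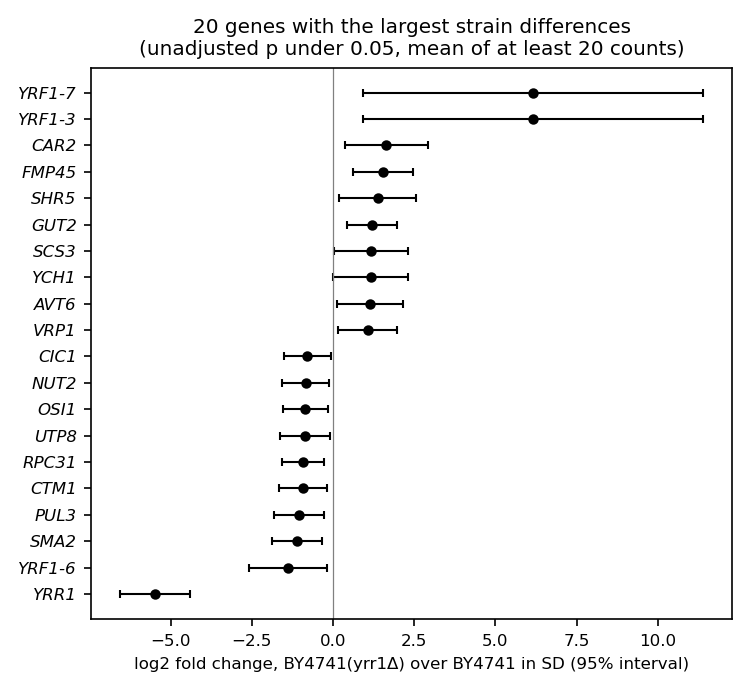
Log2 fold change of BY4741(*yrr1*Δ) over BY4741 in SD (x axis, points, with 95% intervals as bars) for the 10 genes with the largest positive and the 10 with the largest negative values (y axis) among genes with an unadjusted p under 0.05 and a mean of at least 20 counts. The intervals of *YRF1-3* and *YRF1-7* run from 0.93 to 11.39, and that of *YRR1* from -6.55 to -4.40 stands apart from the other lower genes.

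The genes *BDH1* and YLR410W-A lie outside that selection and were picked after their values were seen. *BDH1*, butanediol dehydrogenase, had 689.6 and 625 CPM in BY4741(*yrr1*Δ), against 443 and 417 CPM in BY4741, with a log2 fold change of 0.61 and a standard error of 0.15 (unadjusted p = 0.00309 and FDR = 0.9995 from edgeR's quasi-likelihood test). Its strain difference was larger than the difference within either pair of cultures, and it ran from 0.53 to 0.68 over the settings and left-out libraries. YLR410W-A, a Gag gene of a retrotransposon family with near-identical copies elsewhere in the genome, had 0 and 0 counts in BY4741(*yrr1*Δ), against 24 and 18 counts in BY4741, at least 6.71-fold lower against a floor of 3 counts in each library (FDR = 0.317 from edgeR's quasi-likelihood test). Limma on log2 FPKM called it at an FDR of at most 0.05, and its reads may be split between copies.

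A further 8 genes were included because the study's text names them. These were *FMP45*, *CAR2*, *SCS3*, *UTH1*, *COQ21* (YBR230W-A), YCL048W-A, *CMI7* (YIL002W-A) and *PMP3*. They were chosen on these same libraries and are no independent evidence of a direction. *UTH1*, a SUN family gene of the cell wall and mitochondria, had 766 and 198 CPM in BY4741(*yrr1*Δ), against 143 and 285 CPM in BY4741. Replicate 1 of BY4741(*yrr1*Δ) held its highest level, and replicate 2 lay between the BY4741 cultures. *COQ21*, a paralog of *COQ8*, had 24 and 16 counts in BY4741(*yrr1*Δ), against 9 and 2 counts in BY4741. YCL048W-A had 39 and 21 counts in BY4741(*yrr1*Δ), against 4 and 19 counts in BY4741. Both were higher in BY4741(*yrr1*Δ) without overlap, YCL048W-A by 2 counts between the nearest libraries. *CMI7* had 2 and 1 counts in BY4741(*yrr1*Δ), against 15 and 5 counts in BY4741, lower in the deletion strain by a ratio of 6.42 with an exact 95% counting interval of 1.90 to 33.7. *PMP3*, which had too few counts for the test, had 1 and 2 counts in BY4741(*yrr1*Δ), against 9 and 4 counts in BY4741, lower by a ratio of 4.17 with an interval of 1.15 to 22.8. The last 4 genes had at most 39 counts in a library.

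Ribosome biogenesis genes differed between cultures of 1 strain more than between the strains. Of 62 genes listed 61 were tested, and the median log2 fold change was -0.38, against -0.01 over all genes. It was negative for 59 of the 61 (96.7%), against 51.0% of all genes tested. An unadjusted p under 0.05 was reached by 4 lower genes (6.56%), against 0.672% of all genes. It was reached by 0 higher ones, against 1.11% of all genes, and 0 passed the adjusted threshold. The median deviation from each gene's mean, in replicate 1 and then in replicate 2, was 0.17 and -0.56 in BY4741(*yrr1*Δ), against -0.27 and 0.68 in BY4741. So replicate 2 of BY4741 was the highest of the 4 libraries, replicate 1 of BY4741(*yrr1*Δ) the next, and replicate 2 of BY4741(*yrr1*Δ) the lowest. Replicate 1 was above replicate 2 for 60 of the 61 genes in BY4741(*yrr1*Δ), and replicate 2 was above replicate 1 for 60 of the 61 in BY4741. Of the summed squared deviations of these genes 15.3% lay between the strains, against 25.3% over all genes.

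The strain median of this list changed with the library left out. It was -0.89 without replicate 1 and -0.10 without replicate 2 of BY4741(*yrr1*Δ), and -0.83 without replicate 1 and 0.14 without replicate 2 of BY4741. The number of lower genes with an unadjusted p under 0.05 was 15 without replicate 1 and 0 without replicate 2 of BY4741(*yrr1*Δ), and 28 without replicate 1 and 0 without replicate 2 of BY4741. Over all genes the same fits gave 150 lower genes of 5537 without replicate 1 and 75 of 5546 without replicate 2 of BY4741(*yrr1*Δ), and 184 of 5544 without replicate 1 and 23 of 5545 without replicate 2 of BY4741. Libraries of the strains did not overlap for 5 of 61 genes that were lower in BY4741(*yrr1*Δ) and for 0 that were higher, against 12.9% of all genes in each direction.

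The 4 ribosome biogenesis genes with the highest FPKM were *NOP1*, *NOP56*, *NOP58* and *RRP42*. *NOP56* and *NOP58*, core proteins of box C/D particles that guide rRNA methylation, had 467 and 299 CPM in BY4741(*yrr1*Δ), against 418 and 565 CPM in BY4741 for *NOP56*. For *NOP58* the values were 229 and 155 CPM, against 189 and 349 CPM in BY4741. *NOP1*, fibrillarin, the methyltransferase of the same particles, had 329.6 and 42.1 CPM in BY4741(*yrr1*Δ), against 43.2 and 145 CPM in BY4741. *NOP1* had its highest level in replicate 1 of BY4741(*yrr1*Δ), while *NOP56* and *NOP58* had theirs in replicate 2 of BY4741. *RRP42*, a subunit of the exosome, had 102 and 79.2 CPM in BY4741(*yrr1*Δ), against 96.3 and 103 CPM in BY4741.

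The 4 lower genes were *UTP8*, given above, and *NOP12*, *RRP17* and *UTP20*, which were chosen after their values were seen. *UTP20*, another component of the processome, had 46.2 and 38.7 CPM in BY4741(*yrr1*Δ), against 44.5 and 98.3 CPM in BY4741. *NOP12*, of large subunit maturation, had 63.5 and 54.7 CPM in BY4741(*yrr1*Δ), against 69.1 and 116 CPM in BY4741. *RRP17*, an exonuclease of rRNA processing, had 48.1 and 33.3 CPM in BY4741(*yrr1*Δ), against 51.8 and 71.4 CPM in BY4741. Replicate 2 of BY4741 was the highest library for these genes, and for *UTP20* the other 3 libraries lay close together.

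Genes of this group are known for a pair of promoter elements, PAC and RRPE. The PAC core GATGAG was on either strand in 52 of 62 ribosome biogenesis promoters (83.9%), against 20.3% of all 6020 promoters of the same length. The RRPE core AAAATTTT, a palindrome, was in 40 of 62 (64.5%), against 9.003%. Matches are a description of these letters and not a measured site. Stretches from the promoters of 4 genes are shown because these genes gave the lower values or the largest culture differences. That of *NOP58* is shown because it is one of the most abundant of the list. *CIC1* is not among the 62 genes listed. Each is 5′ to 3′ in the sense of the gene, in R64 coordinates, with 20 bases to each side and with PAC and RRPE cores in capitals.
CIC1 (chrVIII:210687-210750, plus strand): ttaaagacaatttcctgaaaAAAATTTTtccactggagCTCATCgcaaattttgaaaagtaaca
NOP58 (chrXV:898448-898515, minus strand): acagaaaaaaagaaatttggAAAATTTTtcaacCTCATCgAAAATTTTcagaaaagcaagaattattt
UTP8 (chrVII:750156-750206, minus strand): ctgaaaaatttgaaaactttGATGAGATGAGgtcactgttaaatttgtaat
DBP2 (chrXIV:413464-413521, plus strand): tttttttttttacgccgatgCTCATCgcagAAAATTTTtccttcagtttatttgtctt
DHR2 (chrXI:288749-288804, plus strand): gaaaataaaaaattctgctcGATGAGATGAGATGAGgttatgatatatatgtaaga
PAC cores began at -123 from the coding start in *CIC1*, at -122 in *NOP58* and at -155 in *DBP2*. In *CIC1*, *NOP58* and *DBP2* an RRPE core was next to the PAC core, with 2 around it in *NOP58*. *UTP8* and *DHR2* held overlapping PAC cores in tandem, 2 in the stretch of *UTP8* and 3 in *DHR2*.

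The genes of RNA polymerase I and its factors, which transcribe rRNA, followed the same order of cultures. Their median deviations were 0.29 and -0.54 in BY4741(*yrr1*Δ), against -0.34 and 0.50 in BY4741, over 12 genes tested. Replicate 1 was the higher in BY4741(*yrr1*Δ) for 12 of 12 and replicate 2 the higher in BY4741 for 12 of 12. *RPA135*, the second largest subunit, had 298 and 137 CPM in BY4741(*yrr1*Δ), against 158 and 425 CPM in BY4741. Its cultures differed more than 2-fold in each strain, and the strains overlapped. The strain median of the list was -0.26 and it was -0.72 without replicate 1 and 0.07 without replicate 2 of BY4741(*yrr1*Δ), and -0.66 without replicate 1 and 0.30 without replicate 2 of BY4741. No gene of the list had an unadjusted p under 0.05, and 0 of 12 had libraries that did not overlap. PAC cores were in 10 of 12 of these promoters (83.3%).

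Translation factors and ribosomal proteins had smaller strain medians. The 32 translation factor genes had a strain median of -0.15 (-0.30 without replicate 1 of BY4741(*yrr1*Δ) and -0.03 without replicate 2 of BY4741), with 9 of 32 below BY4741 without overlap and 0 above, and 24 of 32 of their promoters (75.0%) held an RRPE core. *SUP45*, the release factor that reads stop codons, had 329 and 320.5 CPM in BY4741(*yrr1*Δ), against 383 and 423 CPM in BY4741. *EFB1*, the exchange factor of the elongation factor, had 1081 and 924 CPM in BY4741(*yrr1*Δ), against 1119 and 1121 CPM in BY4741, so both BY4741(*yrr1*Δ) cultures were lower in these genes. *TEF1* and *TEF2* encode the same elongation factor and may share reads, and neither separated the strains.

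Of 135 cytosolic ribosomal protein genes, 94 had a negative log2 fold change with a median of -0.09, 0 had an unadjusted p under 0.05, and 19 of 135 lay below and 2 of 135 above BY4741 without overlap. The median turned to 0.12 without replicate 2 of BY4741(*yrr1*Δ), while leaving out replicate 1 of BY4741(*yrr1*Δ) gave -0.32. Median deviations were 0.18 and -0.27 in BY4741(*yrr1*Δ), against 0.09 and -0.01 in BY4741, so that replicate 2 of BY4741(*yrr1*Δ) was low and the 2 BY4741 cultures were close. *RPL5*, a protein of the large subunit, had 2038 and 1770.0 CPM in BY4741(*yrr1*Δ), against 2329.6 and 2246 CPM in BY4741. *RPS31*, a ribosomal protein made as a fusion with ubiquitin, had 6049 and 3992 CPM in BY4741(*yrr1*Δ), against 5366 and 4734 CPM in BY4741. *RPL28* had 3725 and 2420.2 CPM in BY4741(*yrr1*Δ), against 2934 and 2720.5 CPM in BY4741. Only *RPL5* of these 3 separated the strains. Many ribosomal proteins are encoded by near-identical gene pairs, whose single counts are uncertain.

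General stress genes had values on the other side. Of 44 genes listed 41 were tested, with a median log2 fold change of 0.36. It was positive for 39 of the 41 (95.1%), against 49.0% of all genes tested. An unadjusted p under 0.05 was reached by 5 higher genes (12.2%), against 1.11% of all genes. It was reached by 0 lower ones, against 0.672% of all genes, and 0 passed the adjusted threshold. The strains did not overlap for 13 of 41 genes that were higher in BY4741(*yrr1*Δ) and for 0 that were lower. The median deviations were 0.01 and 0.30 in BY4741(*yrr1*Δ), against 0.14 and -0.46 in BY4741. Thus replicate 2 of BY4741 was the lowest library by a margin, replicate 2 of BY4741(*yrr1*Δ) the highest, and the remaining cultures of the 2 strains lay between them.

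The strain median of the stress list was 0.50 without replicate 1 and 0.14 without replicate 2 of BY4741(*yrr1*Δ), and 0.66 without replicate 1 and 0.05 without replicate 2 of BY4741. The number of higher genes with an unadjusted p under 0.05 was 5 without replicate 1 and 4 without replicate 2 of BY4741(*yrr1*Δ), and 19 without replicate 1 and 1 without replicate 2 of BY4741. Over all genes the same fits gave 26 higher genes without replicate 1 and 280 without replicate 2 of BY4741(*yrr1*Δ), and 97 without replicate 1 and 40 without replicate 2 of BY4741. Leaving out replicate 2 of BY4741 thus turned the sign of the ribosome biogenesis median and brought the stress median near that of all genes, 0.05 against 0.002. In that fit 23 of 41 stress genes were positive, against 39 of 41 with all libraries.

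*GRE1*, a hydrophilin gene, had the smallest p among the stress genes and had 197 and 177 CPM in BY4741(*yrr1*Δ), against 112 and 109 CPM in BY4741, with a log2 fold change of 0.76 and a standard error of 0.20 (unadjusted p = 0.00373 and FDR = 0.9995 from edgeR's quasi-likelihood test). Its 2 cultures of each strain were close, and the value ran from 0.66 to 0.83 over the settings and left-out libraries. *HSP12*, a small membrane-bound heat shock protein, had 4348 and 2758 CPM in BY4741(*yrr1*Δ), against 2078 and 2538 CPM in BY4741, with a log2 fold change of 0.62 and a standard error of 0.26. Replicate 1 of BY4741(*yrr1*Δ) was the high library of *HSP12*, and without it the value was 0.25. *MSC1* had 1415 and 2197 CPM in BY4741(*yrr1*Δ), against 1707 and 1001 CPM in BY4741. *PNC1*, the nicotinamidase, had 849 and 1109.7 CPM in BY4741(*yrr1*Δ), against 979.8 and 548 CPM in BY4741. For both of these the strains overlapped, and replicate 2 of BY4741 was the lowest.

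The other 3 stress genes with an unadjusted p under 0.05 were *GND2*, *SYM1* and *TKL2*, chosen after their values were seen. *TKL2*, a transketolase, had 222 and 278 CPM in BY4741(*yrr1*Δ), against 204 and 126 CPM in BY4741. *GND2*, a dehydrogenase of the pentose phosphate pathway, had 271 and 328 CPM in BY4741(*yrr1*Δ), against 210.3 and 197 CPM in BY4741. *SYM1*, a mitochondrial membrane protein, had 108 and 101 CPM in BY4741(*yrr1*Δ), against 85.1 and 55.4 CPM in BY4741. These 3 genes were higher in both BY4741(*yrr1*Δ) cultures than in either BY4741 culture. *HSP26*, a small heat shock chaperone, had 1018 and 1019 CPM in BY4741(*yrr1*Δ), against 874 and 797 CPM in BY4741, also without overlap and with an unadjusted p of 0.18 from edgeR's quasi-likelihood test.

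Stress genes are known for the stress response element CCCCT, bound by Msn2p and Msn4p. It was on either strand in 27 of 44 general stress promoters (61.4%) and in 9 of 20 trehalose and glycogen promoters (45.0%), against 21.6% of all promoters. The stretches below come from the stress gene with the highest FPKM, from *TSL1*, which had 3 matches, and from *RGI1*, a gene with a large difference between the BY4741 cultures. They are 5′ to 3′ in the sense of the gene in R64, with the element or its reverse complement AGGGG in capitals.
HSP12 (chrVI:107006-107090, plus strand): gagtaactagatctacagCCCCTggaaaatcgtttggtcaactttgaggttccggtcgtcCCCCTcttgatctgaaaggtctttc
TSL1 (chrXIII:70374-70483, plus strand): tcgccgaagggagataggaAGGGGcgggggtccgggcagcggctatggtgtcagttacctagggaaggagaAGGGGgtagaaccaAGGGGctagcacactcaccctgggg
RGI1 (chrV:291816-291872, plus strand): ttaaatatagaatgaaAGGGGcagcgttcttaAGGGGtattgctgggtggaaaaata
In the windows of these promoters *TSL1* held 3 against 2 in *HSP12* and 2 in *RGI1*.

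Trehalose and glycogen genes build and break down the reserve sugars of yeast. Within each strain, almost every member had the same culture as the higher one. Their median deviations were -0.18 and 0.39 in BY4741(*yrr1*Δ), against 0.35 and -0.57 in BY4741 over 20 genes tested. Replicate 2 was the higher of the BY4741(*yrr1*Δ) cultures for 19 of 20 genes, and replicate 1 the higher of the BY4741 cultures for 20 of 20. *TPS1*, trehalose phosphate synthase, had 1254 and 1518 CPM in BY4741(*yrr1*Δ), against 1367 and 816 CPM in BY4741. *TSL1*, a subunit of the same complex, had 906 and 1347 CPM in BY4741(*yrr1*Δ), against 1358 and 530.0 CPM in BY4741. *PGM2*, phosphoglucomutase, had 713 and 1233 CPM in BY4741(*yrr1*Δ), against 1155 and 415 CPM in BY4741. Replicate 2 of BY4741 was the lowest library for these 3, and the strains overlapped. Of their summed squared deviations 8.74% lay between the strains, against 28.3% for the general stress list. The strain median was 0.16 and it was 0.43 without replicate 1 and -0.18 without replicate 2 of BY4741(*yrr1*Δ), and 0.70 without replicate 1 and -0.26 without replicate 2 of BY4741. No gene of the list had an unadjusted p under 0.05, and 1 of 20 lay above BY4741 without overlap.

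Chaperones had a strain median near that of all genes. The median log2 fold change of 30 genes was 0.08 and it was -0.01 with limma on log2(FPKM + 1) and -0.08 without replicate 2 of BY4741(*yrr1*Δ), and median deviations were -0.03 and 0.12 in BY4741(*yrr1*Δ), against -0.0048 and -0.08 in BY4741. The genes *HSP31* and *SSA4* were the 2 with an unadjusted p under 0.05. *HSP31*, a methylglyoxalase and chaperone, had 253 and 238 CPM in BY4741(*yrr1*Δ), against 194 and 161 CPM in BY4741, with a log2 fold change of 0.46 and a standard error of 0.18. *SSA4*, the stress-induced Hsp70, chosen after its values were seen, had 663 and 775 CPM in BY4741(*yrr1*Δ), against 551 and 531 CPM in BY4741. Both genes were higher in each BY4741(*yrr1*Δ) culture than in either BY4741 culture. The abundant *SSB1*, an Hsp70 of the ribosome, had 2904 and 2015 CPM in BY4741(*yrr1*Δ), against 2448 and 2972 CPM in BY4741. *HSC82*, an Hsp90, had 2646 and 3047 CPM in BY4741(*yrr1*Δ), against 3041 and 2890.2 CPM in BY4741, with overlap of the strains.

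**Figure D4:**
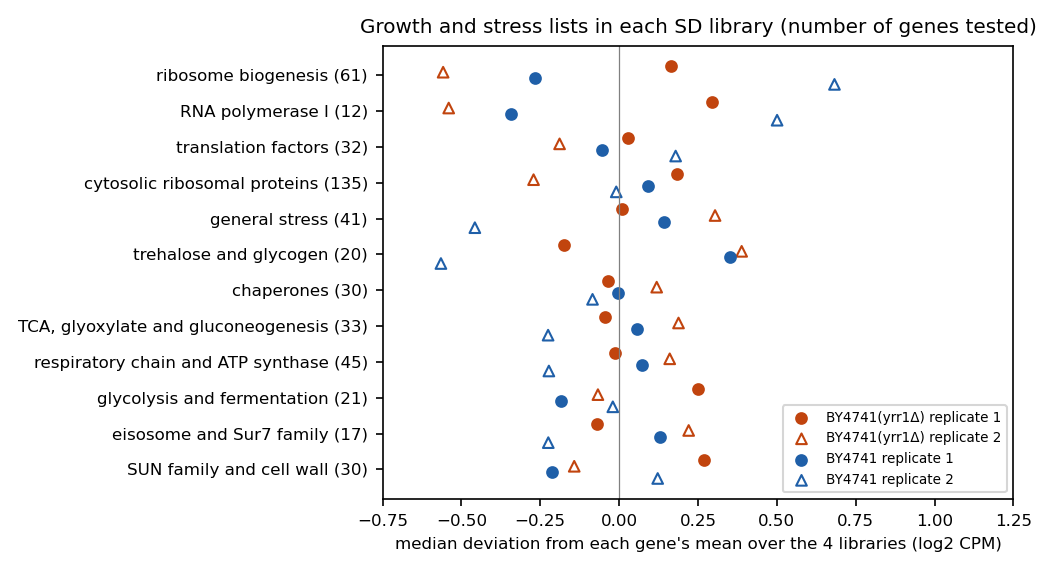
Median deviation of the genes of 12 lists from their mean over the 4 libraries (x axis, log2 CPM) in the 2 BY4741(*yrr1*Δ) libraries (orange) and the 2 BY4741 libraries (blue), with circles for replicate 1 and triangles for replicate 2 and the number of genes tested in parentheses. For ribosome biogenesis, replicate 2 of BY4741(*yrr1*Δ) is at -0.56 and replicate 2 of BY4741 at 0.68, and for trehalose and glycogen the same libraries are at 0.39 and -0.57, with the other 2 libraries between them.

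TCA cycle, glyoxylate and gluconeogenesis genes had a strain median of 0.17, with 27 of 33 positive and 8 of 33 above BY4741 without overlap, and the lowest and highest medians with 1 library left out were -0.04 without replicate 2 of BY4741(*yrr1*Δ) and 0.31 without replicate 1 of BY4741. *ACO1*, aconitase, had 1182 and 1781 CPM in BY4741(*yrr1*Δ), against 1525 and 1169 CPM in BY4741. For respiratory chain and ATP synthase genes the median was 0.14 with 32 of 45 positive, and it was 0.00021 without replicate 2 of BY4741. Of these genes 11 of 45 lay above and 2 of 45 below BY4741 without overlap. *ATP2*, the beta subunit of the ATP synthase, had 947 and 1177 CPM in BY4741(*yrr1*Δ), against 1051 and 896 CPM in BY4741. *QCR7*, a subunit of the ubiquinol cytochrome c reductase complex, had 160.2 and 224 CPM in BY4741(*yrr1*Δ), against 179.6 and 129.9 CPM in BY4741. The strains overlapped for these 3 genes, with replicate 2 of BY4741(*yrr1*Δ) the highest library in each.

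Glycolysis and fermentation genes had a strain median of 0.21, with 19 of 21 positive, 5 of 21 above BY4741 without overlap and 0 with an unadjusted p under 0.05. With 1 library left out the lowest and the highest median of this list were 0.05 without replicate 1 of BY4741(*yrr1*Δ) and 0.34 without replicate 2 of BY4741(*yrr1*Δ). *TDH3*, the main glyceraldehyde 3-phosphate dehydrogenase, had 30012 and 24756 CPM in BY4741(*yrr1*Δ), against 21969 and 24909.6 CPM in BY4741. *ENO2*, enolase, had 21502 and 13156 CPM in BY4741(*yrr1*Δ), against 11974 and 16479 CPM in BY4741. *TDH1*, a minor glyceraldehyde 3-phosphate dehydrogenase, had 4379.9 and 3879 CPM in BY4741(*yrr1*Δ), against 3094 and 3270.4 CPM in BY4741. Replicate 1 of BY4741(*yrr1*Δ) was the highest library for these 3, and *TDH1* alone of the 3 did not overlap. This library held 17 of the 21 genes of the list at a higher level than replicate 2 of BY4741(*yrr1*Δ). Genes of this kind share sequence between copies, and the counting could split their reads.

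Hexose transporter and glucose sensing genes had a median of 0.02, which was -0.06 with library size alone as the scale and -0.20 without replicate 1 of BY4741(*yrr1*Δ). *HXT3*, a low-affinity transporter used when glucose is high, had 1475 and 574 CPM in BY4741(*yrr1*Δ), against 765 and 1548 CPM in BY4741. *HXT7*, a high-affinity transporter used when glucose is low, had 2089.8 and 2403 CPM in BY4741(*yrr1*Δ), against 2226 and 961 CPM in BY4741, and its near-identical copy *HXT6* may share its reads. *HXT7* was low in replicate 2 of BY4741 alone. *HXK1*, a hexokinase repressed by glucose, had 1293 and 2312 CPM in BY4741(*yrr1*Δ), against 2116 and 895 CPM in BY4741. *GLK1*, glucokinase, had 2269 and 1845 CPM in BY4741(*yrr1*Δ), against 1578 and 1062 CPM in BY4741. For *HXT3* replicate 1 of BY4741(*yrr1*Δ) and replicate 2 of BY4741 were the high libraries, and for *HXK1* these 2 were the low ones, each strain thus holding 1 culture of each kind. *GLK1* was higher in both BY4741(*yrr1*Δ) cultures.

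The single genes with the largest culture differences fell into those that were high and those that were low in replicate 1 of BY4741(*yrr1*Δ) and replicate 2 of BY4741. *DBP2*, a DEAD-box RNA helicase, had 411 and 69.9 CPM in BY4741(*yrr1*Δ), against 132 and 546 CPM in BY4741. *GFD2* had 112 and 23.6 CPM in BY4741(*yrr1*Δ), against 24.2 and 117 CPM in BY4741. *DHR2*, a helicase of small subunit processing, had 29.4 and 11.4 CPM in BY4741(*yrr1*Δ), against 9.07 and 46.8 CPM in BY4741. These 3 genes were high in replicate 1 of BY4741(*yrr1*Δ) and replicate 2 of BY4741. *TOD6*, which encodes a repressor that binds PAC elements, had 22.1 and 7.16 CPM in BY4741(*yrr1*Δ), against 10.8 and 53.3 CPM in BY4741, with the same libraries high. *RGI1*, a gene of respiratory growth, had 31.3 and 55.2 CPM in BY4741(*yrr1*Δ), against 59.2 and 12.99 CPM in BY4741. *GSY1*, glycogen synthase, had 113 and 191 CPM in BY4741(*yrr1*Δ), against 255 and 60.6 CPM in BY4741, and both were low in those libraries.

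Across the differences of cultures of BY4741(*yrr1*Δ), *NOP1* and *ATS1*, of tRNA wobble modification, were also among the 5 largest, and *ATS1* had 65.9 and 13.5 CPM in BY4741(*yrr1*Δ), against 12.1 and 24.7 CPM in BY4741. YLL067C, a helicase gene of the Y' elements with near-identical copies, had 52 and 0 counts in BY4741(*yrr1*Δ), against 51 and 102 counts in BY4741, with 0 in replicate 2 of BY4741(*yrr1*Δ) alone. Among 4659 genes with a mean of at least 50 counts, 202 differed at least 2-fold between the BY4741(*yrr1*Δ) cultures and 187 between the BY4741 cultures, against 8 between the strain means. In a principal component analysis of the 4 libraries the first component, with 59.6% of the variance, placed replicate 1 of BY4741(*yrr1*Δ) at -19.8 and replicate 2 at 19.6, against 15.8 for replicate 1 and -15.7 for replicate 2 of BY4741. The second component, with 27.6%, placed the strains apart, at -15.3 and -7.04 in BY4741(*yrr1*Δ), against 5.91 and 16.4 in BY4741.

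**Figure D5:**
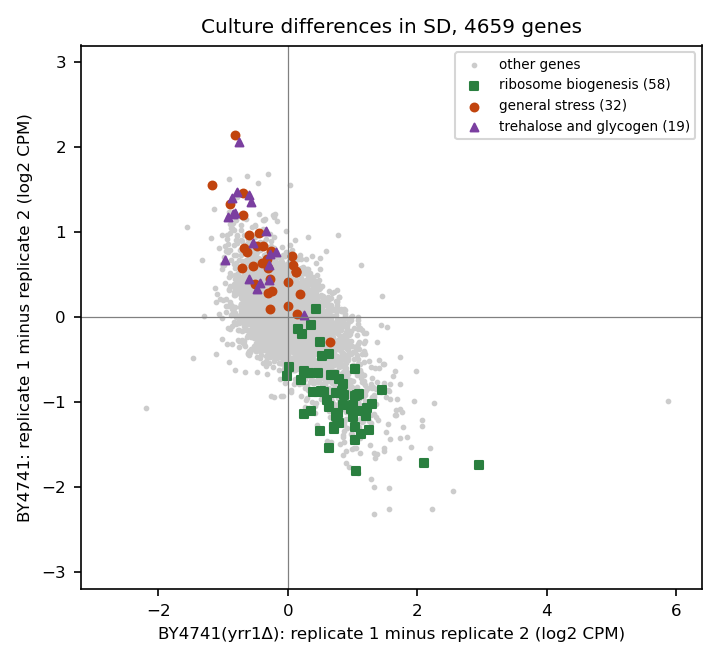
Difference between replicate 1 and replicate 2 in log2 CPM for BY4741(*yrr1*Δ) (x axis) and BY4741 (y axis) in SD, 1 point per gene with a mean of at least 50 counts (4659 genes), with ribosome biogenesis genes in green, general stress genes in orange and trehalose and glycogen genes in purple. The replicate numbers only name cultures. Ribosome biogenesis genes lie to the lower right, where replicate 1 of BY4741(*yrr1*Δ) and replicate 2 of BY4741 are the higher cultures, and trehalose and glycogen genes to the upper left, while the point farthest right is YLL067C, with 0 counts in replicate 2 of BY4741(*yrr1*Δ).

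Among biosynthetic lists, amino acid synthesis had a median of 0.01, which was -0.05 with library size alone, with 0 of 47 genes at an unadjusted p under 0.05. *ILV5*, an enzyme of branched-chain amino acid synthesis, had 1259 and 1043 CPM in BY4741(*yrr1*Δ), against 1081 and 1289.9 CPM in BY4741. Sulfate and methionine genes had a median of 0.05, which was -0.01 with library size alone and -0.10 without replicate 2 of BY4741, with 2 of 25 above and 1 of 25 below BY4741 without overlap. Arginine, proline and nitrogen catabolite genes had a median of 0.25, with 27 of 33 positive. Of these genes 11 of 33 lay above and 3 of 33 below BY4741 without overlap. *CAR2*, given above, was the 1 gene of the list with an unadjusted p under 0.05. Without 1 library in turn the median of this list ran from 0.16 to 0.26. *GAP1*, the general amino acid permease, had 261 and 313 CPM in BY4741(*yrr1*Δ), against 233 and 198 CPM in BY4741. *GDH1*, glutamate dehydrogenase, had 1198 and 1257 CPM in BY4741(*yrr1*Δ), against 1089.9 and 978 CPM in BY4741.

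Lists of the cell surface gave small medians. Eisosome and Sur7 family genes had 0.11 with *FMP45* the 1 gene at an unadjusted p under 0.05, and their median turned to -0.02 without replicate 2 of BY4741(*yrr1*Δ) and to -0.04 without replicate 2 of BY4741. *PIL1*, the core eisosome protein, had 991 and 1217 CPM in BY4741(*yrr1*Δ), against 1136 and 869 CPM in BY4741. SUN family and cell wall genes had 0.19, with 7 of 30 above and 1 of 30 below BY4741 without overlap, and their median turned to -0.05 without replicate 1 of BY4741(*yrr1*Δ). *SED1*, an abundant cell wall protein, had 3124 and 3231 CPM in BY4741(*yrr1*Δ), against 2688 and 2832 CPM in BY4741, and its strains did not overlap. *CCW12*, another wall protein, had 2438 and 1628 CPM in BY4741(*yrr1*Δ), against 1544 and 1708 CPM in BY4741, with replicate 1 of BY4741(*yrr1*Δ) apart from the rest. Inositol and phospholipid genes had 0.02, where library size alone as the scale gave -0.04, and plasma membrane and V-ATPase genes had 0.16, which turned to -0.00055 without replicate 1 of BY4741(*yrr1*Δ). *PMA1*, the plasma membrane proton pump, had 4963 and 4321 CPM in BY4741(*yrr1*Δ), against 3537 and 5324 CPM in BY4741.

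Of the remaining lists, histones and G1 cyclins had a median of 0.02, which was -0.04 with library size alone and -0.10 without replicate 2 of BY4741, and 6 of 21 lay below and 1 of 21 above BY4741 without overlap. *RNR1*, a ribonucleotide reductase subunit made in S phase, had 569.7 and 425 CPM in BY4741(*yrr1*Δ), against 541 and 826 CPM in BY4741, with replicate 2 of BY4741 the highest library. Ubiquinone synthesis genes had a median of 0.11, with *COQ21*, given above, at an unadjusted p under 0.05, and the median turned to -0.07 without replicate 2 of BY4741(*yrr1*Δ) and to -0.09 without replicate 2 of BY4741. The 16 reductases and dehydrogenases listed for vanillin conversion had a median of 0.19, or 0.08 without replicate 1 of BY4741(*yrr1*Δ), with 6 of 16 above and 1 of 16 below BY4741 without overlap and 0 at an unadjusted p under 0.05. *OYE3*, an NADPH dehydrogenase, had the smallest p among them and had 7.22 and 8.42 CPM in BY4741(*yrr1*Δ), against 3.45 and 5.20 CPM in BY4741. *OYE2*, its abundant relative, had 726 and 591 CPM in BY4741(*yrr1*Δ), against 632 and 775 CPM in BY4741. *ALD6*, an aldehyde dehydrogenase, had 1997 and 1484 CPM in BY4741(*yrr1*Δ), against 1539 and 1556 CPM in BY4741. Without vanillin the strains could not be told apart in these reductases by the adjusted test.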

How the data were processed

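Poly(A) RNA of 2 cultures per strain and medium was sequenced on an Illumina platform. The authors deposited 1 table per library with an expected count per gene (an estimate of its reads, not normalised) and an FPKM value (scaled to gene length and library size). The build in the submitters' processing notes is R64, and the aligner and counting tool are not given in the sources used here. Deposited tables that hold the authors' own comparisons (group mean FPKM, log2 ratio and a probability score) were not used.

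Expected counts were rounded to whole numbers, a gene missing from a library was set to 0, and genes were named through RefSeq. Counts were scaled by TMM and tested with edgeR 4.0.16 (glmQLFit and glmQLFTest, R 4.3.3) in 1 model of 4 conditions with 2 libraries each, after filterByExpr, with Benjamini-Hochberg adjustment over the 5506 genes tested. CPM used the TMM-scaled library size, and log2 values for spreads and deviations added a prior count of 1. Standard errors were computed from the log2 fold change and the F statistic. Intervals of low counts were exact for a ratio of counts. Precision is limited by 2 cultures per strain. The p-values rest on a spread between replicates estimated over all 8 libraries and shared across genes, not on the 4 SD cultures alone.

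Genes were named by a rule. It took *YRR1*, the 10 genes with the largest positive and the 10 with the largest negative log2 fold change among genes with an unadjusted p under 0.05 and a mean of at least 20 counts, the 8 genes named in the study's text for this comparison, the Yrr1p targets and strain markers, the 4 members of each other list with the highest FPKM and the member with the smallest p, and the 5 genes with the largest culture difference in each strain at a mean of at least 50 counts. The text gives a part of these, and says where a gene was added after its values were seen. The members and lists were chosen with earlier results of these data known. Alternatives were DESeq2 1.42.0, limma 3.58.1 on log2(FPKM + 1) and log2(FPKM + 0.1), other scalings and filters, fits of the 4 SD libraries, replicate blocks and each left-out library. Scripts were tested on simulated data. Promoters and positions came from the RefSeq R64 assembly.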

Additional observations from a re-analysis of the deposited data

Results flagged for a closer look

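An interaction test in the model of 8 libraries compared the strain difference with 5 mM vanillin with that in SD. Among 157 genes read in this test, the strain difference depended on the medium in 3 (FDR = 0.0374 for each from edgeR's quasi-likelihood test). Over all genes tested there were 5 such genes. *BDH1*, which is among the 3, was not picked by the naming rule and was added after its values were seen. The count of 3 is therefore not a result of the naming rule alone. The differences compare strain effects in separate sets of cultures, and groups of 2 cultures allow no test for a culture far from the others.

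*SNG1* had an interaction of -3.58 on the log2 scale. With vanillin it had 42.3 and 30.9 CPM in BY4741(*yrr1*Δ), against 431 and 502 CPM in BY4741, a log2 fold change of -3.67 with a standard error of 0.34. In SD its log2 fold change was -0.09. *BDH1* had an interaction of -1.999, with 268 and 267 CPM in BY4741(*yrr1*Δ) and vanillin, against 708 and 692 CPM in BY4741 and vanillin. Its log2 fold change was -1.39 with vanillin and 0.61 in SD, so the 2 media had opposite signs. *TDH1* had an interaction of -2.12, with 2402 and 2181 CPM in BY4741(*yrr1*Δ) and vanillin, against 8944 and 6377 CPM in BY4741 and vanillin. Its log2 fold change was -1.74 with vanillin and 0.38 in SD, and reads of its near-identical copies could be split. In BY4741 the 3 genes had higher CPM in both vanillin cultures than in either SD culture.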

How the results depend on the processing

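The count of genes with an FDR of at most 0.05, 1 as reported, was 2 with limma on log2(FPKM + 1), which added YLR410W-A, 0 from the 4 SD libraries alone, and 0 to 1 without 1 library in turn. The count at an FDR up to 0.001 with a 2-fold change or more, 0 as reported, was 1 with DESeq2's Wald test. The count with an unadjusted p under 0.05, 98 as reported, was 52 from the 4 SD libraries alone and 63 to 355 without 1 library in turn. The log2 fold change of *YRR1* was -5.28 (FDR = 0.0896) with limma on log2(FPKM + 0.1), -5.47 (FDR = 0.0708) from the 4 SD libraries by edgeR, and -6.10 to -5.00 (FDR by edgeR 0.0429 to 0.14) without 1 library in turn.

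The replicate numbers only name cultures. With the replicate block in 8 libraries *YRR1* was still the 1 gene called (FDR = 0.0439 by edgeR). With the replicate block in the 4 SD libraries 0 genes were called, 21 had an unadjusted p under 0.05, and *YRR1* had -5.47 (FDR = 0.182 by edgeR). Over the 6 pairs of conditions the correlation of replicate differences ran from -0.586 to 0.172. A crossed pairing, chosen after the data were seen, gave 75 genes with an FDR of at most 0.05, 14 at the stricter limits and 565 with an unadjusted p under 0.05.

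Leaving out 1 library turned the sign of *SNQ2* (-0.086 to 0.21), *SNG1* (-0.54 to 0.34), YLL056C (-0.48 to 0.064), YPL088W (-0.52 to 0.051), YLR179C (-0.10 to 0.60), *SUR2* (-0.61 to 0.034) and *UTH1* (-0.12 to 1.84). YLR410W-A was -3.13 and -6.30 in the limma fits with the larger and the smaller constant. The share of genes whose strain difference was below the mean culture difference stayed between 73.8% and 75.1%. The cause of these changes was not tested. With 2 cultures per strain a typical gene's 95% interval, before adjustment, spanned 0.55 to each side on the log2 scale, which limits what could be called.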
